A study of Mus musculus with 24 samples.

Results

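The UDP-glucuronosyltransferases (UGTs) described here are 10 mouse genes: Ugt1a1, Ugt1a2, Ugt1a5, Ugt2a3, Ugt2b1, Ugt2b5, Ugt2b34, Ugt2b36, Ugt3a1 and Ugt3a2. The genes were chosen with earlier results of these data known, among them the falls of Ugt1a2 and Ugt1a5 with a sugar drink. Every probe of the array annotated to one of these symbols was taken, whatever its level. The choice covers 10 of the 19057 genes with a symbol and 15 of 45281 probes. Of these, 12 probes of 9 genes could be tested, among 20216 tested probes in all. The study measured liver RNA of male C57BL/6J mice with an Illumina bead array in 24 samples, 6 in each of 4 groups, and asks how a sugar drink changes the liver on 2 diets. The mice were aged 16 weeks, after 10 weeks of feeding. Control mice received a normal diet with plain water. High-sugar mice received the normal diet with a 23% (w/v) sugar drink, high-fat mice a high-fat diet with plain water, and high-fat high-sugar mice the high-fat diet with the sugar drink. The labels name neither the sugar nor the fat of the diet. Replicates are numbered but not stated to be separate animals, so each p reflects only the spread among samples, which may be technical.

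UGTs sit in the membrane of the endoplasmic reticulum and join a sugar from a nucleotide sugar donor to a lipophilic compound, which can then leave the cell in bile or blood. Most use UDP-glucuronic acid and act on bilirubin, bile acids, steroids and drugs, and the liver is their main site. Genes of the Ugt1a locus share their last exons and differ in the first exon, each with a promoter of its own. A probe in the shared exons therefore reads all Ugt1a transcripts together, while a probe in a first exon reads a single one. Where on the transcript each probe lies was not known here, so every probe is given by its own identifier, and levels were not compared between probes.

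The Ugt1a promoters are shown first, because probes of this locus moved in opposite directions in the data. Sequences are from RefSeq on build GRCm38.p6, which held a promoter for 9 of the 10 genes, all but Ugt3a2. Each line gives the 250 bases upstream of the start, plus strand, 5′ to 3′, with matches to the searched motifs in capitals.
Ugt1a5 (chr1:88165762-88166011): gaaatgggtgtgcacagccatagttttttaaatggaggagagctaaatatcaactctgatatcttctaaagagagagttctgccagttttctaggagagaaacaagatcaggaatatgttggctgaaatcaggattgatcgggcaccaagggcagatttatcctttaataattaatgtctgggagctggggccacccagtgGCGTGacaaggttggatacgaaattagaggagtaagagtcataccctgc
Ugt1a2 (chr1:88200361-88200610): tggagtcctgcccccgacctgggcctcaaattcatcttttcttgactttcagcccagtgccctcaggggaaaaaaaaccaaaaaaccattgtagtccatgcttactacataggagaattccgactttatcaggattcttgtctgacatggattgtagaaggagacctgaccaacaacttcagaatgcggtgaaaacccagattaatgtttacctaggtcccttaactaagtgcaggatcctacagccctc
Ugt1a1 (chr1:88211709-88211958): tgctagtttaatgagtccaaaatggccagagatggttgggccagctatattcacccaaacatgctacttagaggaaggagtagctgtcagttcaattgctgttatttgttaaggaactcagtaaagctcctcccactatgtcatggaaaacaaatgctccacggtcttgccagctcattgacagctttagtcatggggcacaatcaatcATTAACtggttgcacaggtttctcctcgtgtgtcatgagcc
Ugt1a5, Ugt1a2 and Ugt1a1 follow one another in this order along chromosome 1. In the windows of 8 Ugt1a genes, aligned end to end in 28 pairs, 47.5% to 69.2% of aligned positions, gaps counted, were identical. The highest share was that of Ugt1a9 and Ugt1a10, and the next was 53.5%, for Ugt1a8 and Ugt1a9. Windows of unrelated genes were not aligned, so these shares do not show a likeness beyond that of any pair of windows. Ugt1a2 and Ugt1a5 were identical at 48.8%, and Ugt1a2 and Ugt1a1 at 50.7%.

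The windows were searched on both strands for 7 motifs, and shares are given over 32851 promoter windows of the same length. The TATA box, written TATAAA, was present in 12.4% of all windows. The HNF1 core, written GTTAAT, was present in 6.43%, and HNF1 is a liver transcription factor with a known part in UGT transcription. The nuclear receptor core, written AGGTCA, was present in 14.0% of the windows. The core of the xenobiotic response element, written GCGTG, was present in 28.2%. The E-box, written CACGTG, was present in 6.02% of the windows. The antioxidant response element core, written TGACNNNGC with any base at N, was present in 10.2%. The CCAAT box, whose name gives its letters, was present in 33.8% of all windows. Among the promoters shown, the xenobiotic response element core lay 49 to 45 bases upstream of the start of Ugt1a5. The HNF1 core, read on the minus strand as ATTAAC, lay 41 to 36 bases upstream of the start of Ugt1a1. It was also present in Ugt2a3 and Ugt3a1, that is in 3 of the 9 UGT windows. Of the same 9 windows, 2 held the nuclear receptor core and 2 the CCAAT box. The TATA box and the xenobiotic response element core were each in 1. The E-box and the antioxidant response element core were in 0. None of the 7 motifs was found in the Ugt1a2 window. A match is a run of letters and not a measured site, and a missing match says only that these letters are not in the window.

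Values are the deposited normalised intensities, in arbitrary linear units that can fall below 0. A probe was tested when it exceeded the noise limit, 6.50 to 6.52, on at least 6 of the 24 arrays. Differences are on the log2 scale of intensity plus 32, with the standard error (SE) of the limma fit and a p adjusted by the Benjamini-Hochberg method over all 20216 probes, and 0.05 was the threshold. Between 17976 and 18011 probes exceeded the noise limit on each array, a range that normalisation narrows. Samples of one group correlated at 0.986 to 0.995 and samples of different groups at 0.973 to 0.992. Of 8 hepatocyte markers, 6 or 7 were above the noise limit in each group. Of intestinal markers 1 of 5, and of kidney markers 1 or 2 of 5, were above it. Pancreatic markers were present: Amy2a5, an amylase, averaged 2898 in control samples and Cela1, an elastase, 721, whereas Cpa1, the pancreatic carboxypeptidase, lay between −1.50 and 1.33 in the 4 groups.

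When high-sugar samples were compared with controls on the normal diet, Ugt1a2 and Ugt1a5 fell steeply, while Ugt1a1, Ugt2a3, Ugt2b1, Ugt2b36, Ugt3a1 and Ugt3a2 rose by smaller amounts. The Ugt2b34 probe exceeded the noise limit on 6 arrays, all of mice with the sugar drink, so it was tested only through the groups where it was high and is left out of the counts for sugar. Of the other 11 probes, 8 rose and 3 fell. Of all tested probes 14.2% rose and 13.8% fell, 28.0% in either direction. The UGT genes were chosen with the falls of Ugt1a2 and Ugt1a5 already known from these data. Shares of all probes, here and below, are therefore given for scale and are no test of the UGT counts. Of the 9 UGT probes above the noise limit on all 24 arrays, 6 rose and 3 fell. The median difference over the 11 probes was 0.38, against −0.02 over all probes. In the high-fat samples 6 of the 11 rose with sugar, 3 fell and 2 did not pass, where 14.9% of all probes rose and 14.7% fell (29.6% in either direction), and the median was 0.53 against −0.02. Samples of the compared groups did not overlap for 9 of 11 probes on the normal diet and 8 of 11 on the high-fat diet, against 11.5% and 13.2% of all tested probes.

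**Figure D1:**
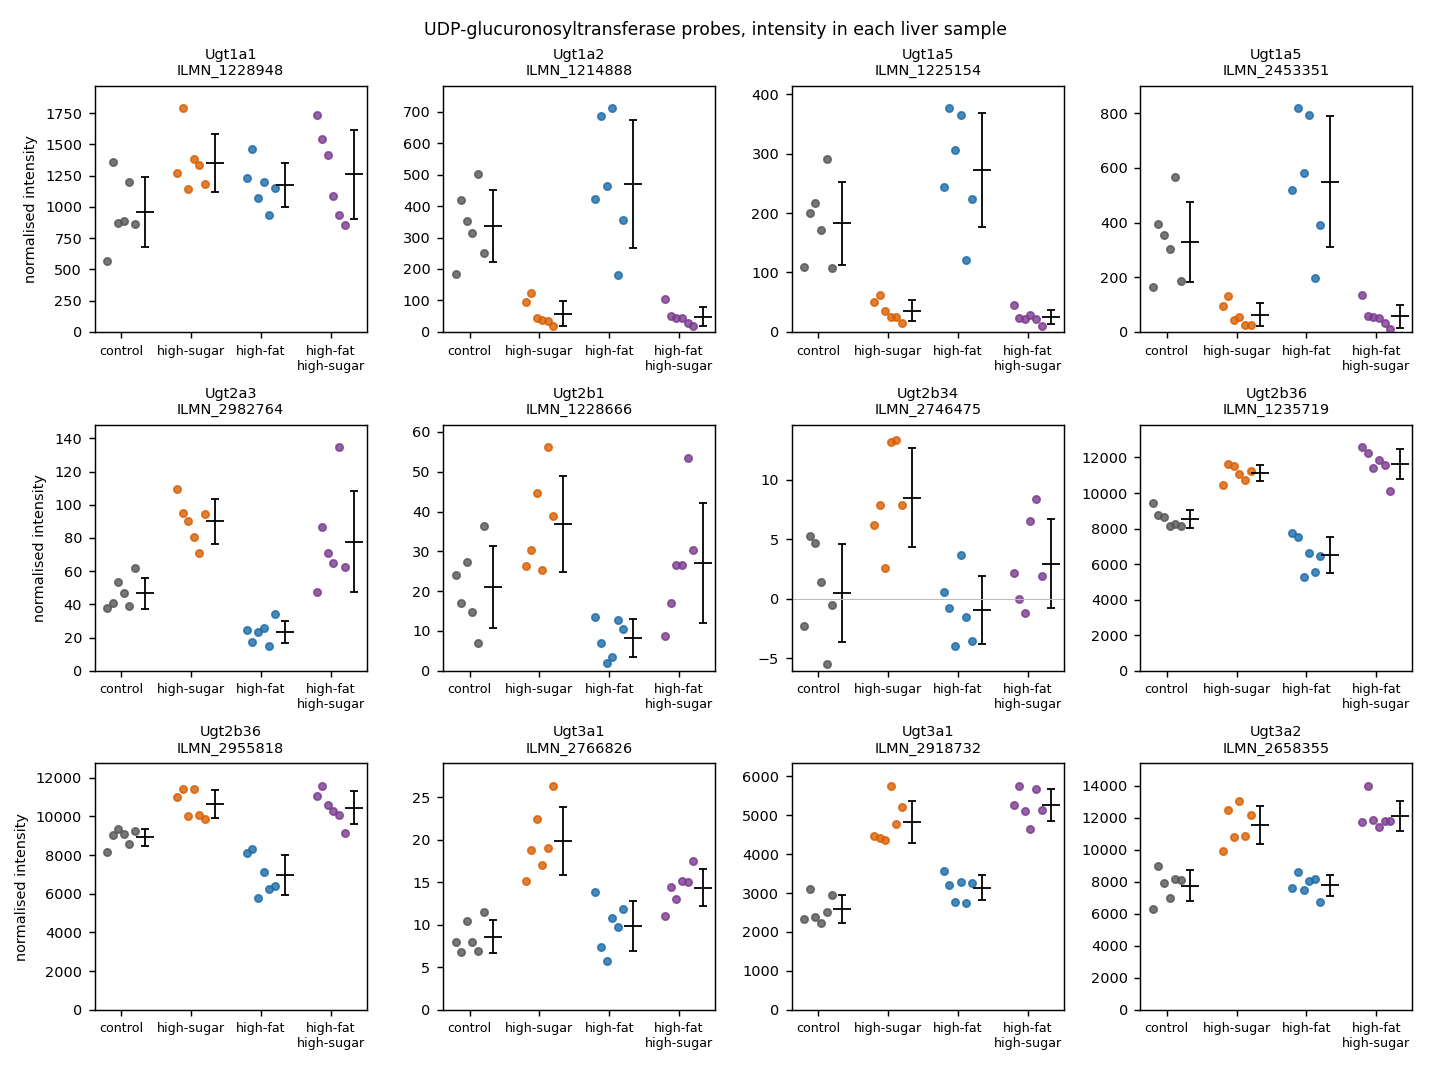
Normalised intensity (y axis, linear, arbitrary units, scaled for each panel) of the 12 tested UGT probes in each of the 24 liver samples, by group on the x axis. Points are samples, and the black bar is the group mean with its SD (n = 6). Both Ugt1a5 probes and Ugt1a2 are low in the groups with the sugar drink, and the other probes are mostly high there.

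Ugt1a2 (ILMN_1214888) had intensities from 184 to 501 in control samples, with a median of 334. In high-sugar samples it lay between 18.0 and 123, with a median of 40.2. No high-sugar sample reached the lowest control sample. The group means were 337 ± 114 and 58.6 ± 40.8 (SD, n = 6), a 5.76-fold lower level with sugar, and the difference was −2.08 ± 0.28 (adjusted p = 3.97e-06, limma). With the high-fat diet Ugt1a2 ranged from 179 to 711 (median 444) with plain water and from 20.3 to 105 (median 45.3) with the sugar drink. Again the groups did not overlap. There the means were 470 ± 203 and 49.0 ± 29.9 (SD, n = 6), a 9.59-fold lower level, and the difference was −2.59 ± 0.28 (adjusted p = 1.18e-07, limma). The other Ugt1a2 probe, ILMN_1252548, was under the noise limit on every array, so the fall rests on a single probe. In bulk tissue, fewer cells that carry a transcript and less of it per cell cannot be told apart.

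Ugt1a5 is read by 2 probes, and both fell. ILMN_2453351 lay between 165 and 565 (median 328) in control samples and between 23.9 and 131 (median 50.5) in high-sugar samples. The highest high-sugar sample was below the lowest control sample, and the difference was −1.94 ± 0.32 (adjusted p = 4.48e-05, limma). On the high-fat diet the same probe went from 197 to 818 (median 550.2) with water to 12.2 to 134 (median 51.9) with sugar. The difference was −2.70 ± 0.32 (adjusted p = 3.79e-07, limma), with no overlap. The other probe, ILMN_1225154, had a median of 186 in the control group and 29.8 in the high-sugar group, and of 275 and 22.8 in the matching high-fat groups. Its differences were −1.64 ± 0.22 on the normal diet (adjusted p = 2.60e-06) and −2.37 ± 0.22 on the high-fat diet (adjusted p = 9.21e-09, limma), so both probes of the gene gave falls of like size. By ILMN_1225154 the mean intensity with sugar was 5.14-fold lower on the normal and 10.9-fold lower on the high-fat diet.

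The probe of Ugt1a1, the enzyme that conjugates bilirubin, did not fall with sugar as the Ugt1a2 and Ugt1a5 probes did. This probe (ILMN_1228948) ranged from 568 to 1360 (median 880) in control samples and from 1146 to 1790 (median 1302) in high-sugar samples. The groups overlapped, although 6 of 6 high-sugar samples lay above the control mean. The difference was 0.52 ± 0.17 (adjusted p = 0.0229, limma), and the call was lost without control replicate 1 (0.38, adjusted p = 0.0772) or without high-sugar replicate 2 (0.43, adjusted p = 0.0668). With intensities under 16 set to 16 it was 0.53 (adjusted p = 0.0527). Among high-fat samples it ranged from 933 to 1461 (median 1176) with water and from 855 to 1732 (median 1252) with sugar. Here 3 of 6 sugar samples lay above the other group's mean, and the difference of 0.07 did not pass (adjusted p = 0.803, 95% interval −0.28 to 0.41). The test of the difference between the diets did not pass either (−0.45, adjusted p = 0.335).

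Other genes of the locus give the context for these falls. Leaving out the Ugt1a10 probe ILMN_2419146, 6 of the 7 tested probes of Ugt1a6a, Ugt1a6b and Ugt1a10 rose with sugar on the normal diet. Of all tested probes 14.2% rose there. With sugar on the high-fat diet 4 of the 7 rose and 3 did not pass, where 14.9% of all tested probes rose. Samples of the compared groups overlapped for all 7 probes on the normal diet, where 11.5% of all tested probes had no overlap. On the high-fat diet 6 of the 7 had no overlap, against 13.2% of all tested probes. The 7 may share exons, so they may not be separate readings. Neither Ugt1a7c (−0.18, adjusted p = 0.0518) nor Ugt1a9 (−0.09, adjusted p = 0.529) passed on the normal diet by limma. Ugt1a6b (ILMN_2515982), whose human counterpart conjugates simple phenols, went from a control median of 1047 to a high-sugar median of 1665 (0.69 ± 0.18, adjusted p = 0.00532). The brightest probe of Ugt1a10 (ILMN_2493826) went from a control median of 15313 to a high-sugar median of 18732 (0.27 ± 0.07, adjusted p = 0.00364), and from 13270 to 20936 with sugar on the high-fat diet (0.61 ± 0.07, adjusted p = 1.77e-07). Ugt1a10 has 6 probes with group means from below 0 to 20353, and which of them lie in the shared exons was not known here. The probe left out was above noise on the 6 high-sugar arrays alone, with a mean of 15.6, and so was tested only through the group where it was high. Over the UGT genes outside the 10, and again without that probe, 7 of 10 tested probes rose and 0 fell on the normal diet by limma, where 14.2% of all probes rose and 13.8% fell. With sugar on the high-fat diet 5 of the 10 rose and 0 fell by limma, where 14.9% of all probes rose and 14.7% fell.

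**Figure D2:**
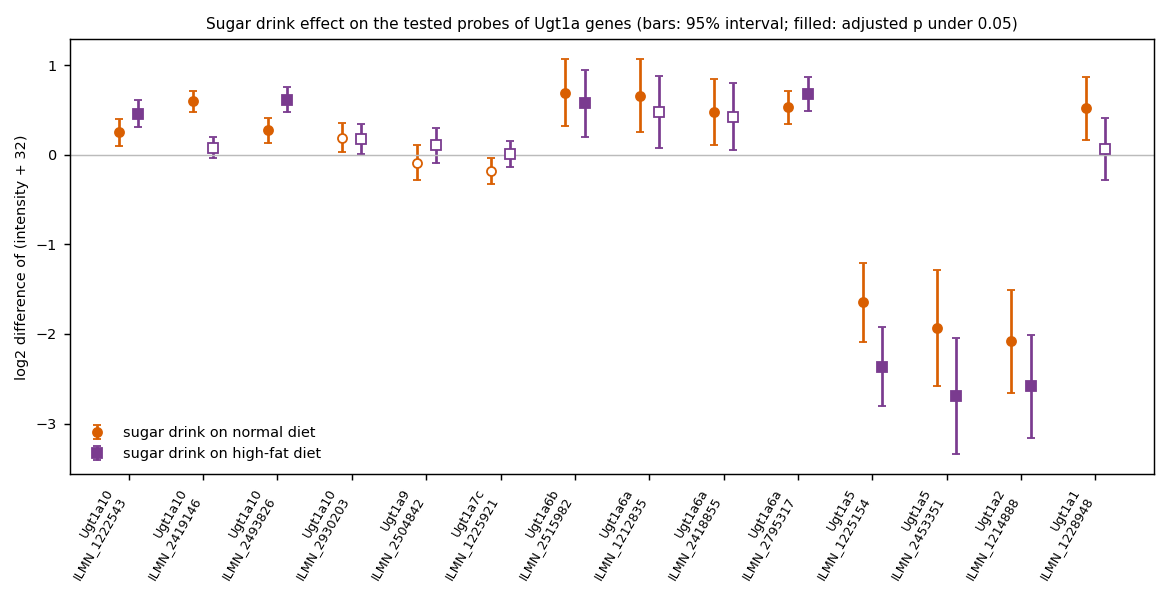
Effect of the sugar drink on each tested probe of the Ugt1a locus, as the log2 difference of intensity plus 32 (y axis), with probes in their gene order on chromosome 1 along the x axis. Circles show the normal diet and squares the high-fat diet, bars are 95% intervals, and filled symbols had an adjusted p under 0.05. The Ugt1a10 probe ILMN_2419146 is included, with a filled circle at 0.60. It was above noise on the high-sugar arrays alone, so it was tested only through the group where it was high. The probes of Ugt1a5 and Ugt1a2 lie between −1.64 and −2.70, and no other probe of the locus passed the threshold with a fall. Ugt1a7c on the normal diet lies at −0.18 (interval −0.32 to −0.04) and missed it (adjusted p = 0.0518, limma).

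Genes of the Ugt2 family, whose enzymes act on bile acids, steroids and drugs, rose with sugar on the normal diet in 4 of 4 tested probes other than that of Ugt2b34, where 14.2% of all probes rose. The Ugt2b1 call among these 4 was lost in 8 alternatives. Ugt2a3, whose human counterpart conjugates bile acids, had the largest fitted rise with sugar among the 10 genes on the high-fat diet. Its probe ILMN_2982764 lay between 38.0 and 62.0 (median 43.9) in control samples and between 70.7 and 109 (median 92.3) in high-sugar samples. High-fat samples lay between 15.2 and 34.2 (median 23.9) with water and between 47.4 and 135 (median 67.9) with sugar. Neither pair of groups overlapped. The differences were 0.63 ± 0.13 (adjusted p = 0.000373) and 0.96 ± 0.13 (adjusted p = 1.75e-06, limma), and the mean intensity was 1.93-fold and 3.34-fold higher. The gene's other probe, ILMN_2714195, stayed under the noise limit on all 24 arrays.

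Both probes of Ugt2b36, a gene of the Ugt2b cluster, rose with sugar on both diets. ILMN_1235719 ranged from 8127 to 9425 (median 8444) in control samples and from 10478 to 11621 (median 11173) in high-sugar samples, a difference of 0.38 ± 0.08 (adjusted p = 0.000672, limma). With fat, it ranged from 5287 to 7763 (median 6535) with water and from 10113 to 12590 (median 11724) with sugar, a difference of 0.84 ± 0.08 (adjusted p = 1.50e-08, limma). In both diets every sugar sample was above every water sample. The second probe, ILMN_2955818, gave 0.25 ± 0.08 (adjusted p = 0.0179) and 0.59 ± 0.08 (adjusted p = 2.90e-06, limma), also without overlap.

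Ugt2b1, whose rat counterpart conjugates bisphenol A, was dim. ILMN_1228666 lay between 6.93 and 36.3 (median 20.7) in control samples, 25.3 and 56.2 (median 34.6) in high-sugar samples, 2.04 and 13.6 (median 8.70) in high-fat samples, and 8.73 and 53.5 (median 26.5) in high-fat high-sugar samples. The groups overlapped in both diets, with 6 of 6 sugar samples above the mean of the water group each time. It rose by 0.38 ± 0.14 on the normal diet (adjusted p = 0.0439) and by 0.53 ± 0.14 on the high-fat diet (adjusted p = 0.00577, limma). The first call did not hold without control replicate 2, 4 or 5 or without high-sugar replicate 3, 5 or 6, where adjusted p lay between 0.0723 and 0.126. Values near the noise limit depend on the offset: with an offset of 64 the 2 differences were 0.25 and 0.32, and with intensities under 16 set to 16 they were 0.70 (adjusted p = 0.0585) and 0.70 (adjusted p = 0.0554).

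Ugt2b34 (ILMN_2746475) was near the limit of measurement. The median was 0.492 in the control group, 7.90 in the high-sugar group, −1.12 in the high-fat group and 2.02 in the high-fat high-sugar group. In these groups 0, 4, 0 and 2 of 6 samples exceeded the noise limit. Since the 6 arrays that let it pass the filter all belong to sugar groups, its differences with sugar, 0.32 on the normal and 0.17 on the high-fat diet, are given as a description. The first was 0.59 with an offset of 16 and 0 with a floor of 16. Ugt2b5 was under the noise limit on all 24 arrays, between −11.7 and −1.27 (ILMN_2473505), as was the second Ugt1a2 probe (ILMN_1252548), which went down to −9.68. An undetected probe does not show that the transcript was absent.

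Ugt3a1 and Ugt3a2 belong to a branch whose human enzymes use N-acetylglucosamine and glucose rather than glucuronic acid as the donated sugar. Ugt3a1 (ILMN_2918732) ranged from 2236 to 3115 (median 2445) in control samples and from 4371 to 5742 (median 4620) in high-sugar samples. With fat it ranged from 2733 to 3564 (median 3237) with water and from 4647 to 5756 (median 5204) with sugar. No sample of a sugar group fell into the range of its water group. The differences were 0.89 ± 0.09 (adjusted p = 6.77e-08) and 0.74 ± 0.09 (adjusted p = 5.26e-07, limma). The dim second probe, ILMN_2766826, had medians of 7.97, 18.9, 10.3 and 14.8 in control, high-sugar, high-fat and high-fat high-sugar samples. It rose on the normal diet (0.35 ± 0.06, adjusted p = 8.07e-05), where an offset of 16 gave 0.54 and one of 64 gave 0.21, and missed the threshold on the high-fat diet (0.15 ± 0.06, adjusted p = 0.0623).

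Ugt3a2 (ILMN_2658355) ranged from 6296 to 9000 (median 8020) in control samples and from 9925 to 13067 (median 11520) in high-sugar samples. High-fat samples ranged from 6757 to 8607 (median 7835) with water and from 11403 to 13996 (median 11796) with sugar. All sugar samples were above all water samples in each diet. The rises, 0.58 ± 0.08 (adjusted p = 8.14e-06) and 0.64 ± 0.08 (adjusted p = 1.53e-06, limma), were of nearly the same size, and the difference between the diets was 0.06 (95% interval −0.18 to 0.30, adjusted p = 0.844).

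**Figure D3:**
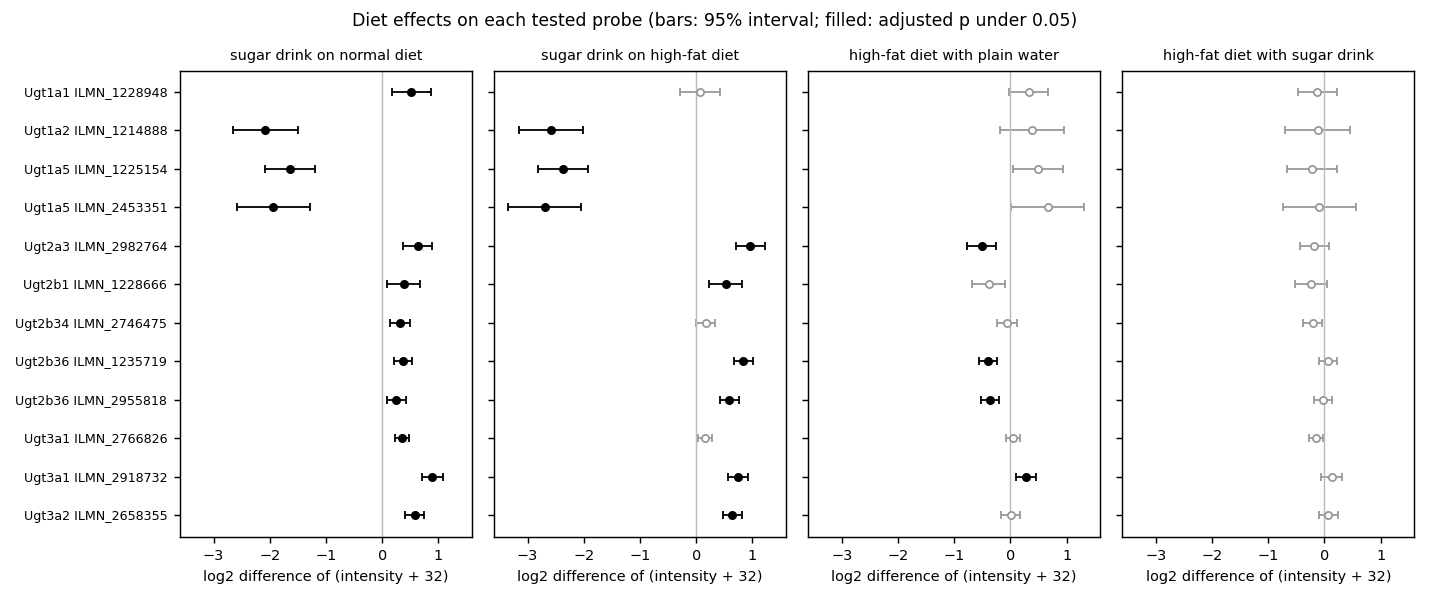
Differences between diet groups for each tested UGT probe (rows) in 4 comparisons (panels), as the log2 difference of intensity plus 32 on the x axis. Points are estimates of the fit, bars are 95% intervals, and filled points had an adjusted p under 0.05. All 12 points are filled for sugar on the normal diet (Ugt2b34 included), 9 for sugar on the high-fat diet, 4 for fat with water and 0 for fat with sugar.

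The high-fat diet with plain water (high-fat against control) lowered Ugt2b36 and Ugt2a3. Of 12 probes, 1 rose and 3 fell, where 7.87% of all tested probes rose and 7.74% fell (15.6% in either direction), and the median was 0.03 against 0.00 over all probes. Samples of 2 probes did not overlap between the groups, against 5.46% of all probes. The Ugt2a3 median went from 43.9 to 23.9 (−0.51 ± 0.13, adjusted p = 0.00567), and the highest high-fat sample was below the lowest control sample. With intensities under 16 set to 16, the same difference was −1.02. Ugt2b36 fell by 0.40 ± 0.08 with ILMN_1235719 (adjusted p = 0.000807), without overlap, and by 0.36 ± 0.08 with ILMN_2955818 (adjusted p = 0.00238, limma). Ugt3a1 rose by 0.28 ± 0.09 with ILMN_2918732 (adjusted p = 0.0323), but this call was lost in 10 of the alternatives. Among these were fits without control replicate 1, 3, 4 or 5 or high-fat replicate 1, 2, 4 or 6, with adjusted p between 0.0535 and 0.0794.

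Ugt1a2 and Ugt1a5 had higher means on the high-fat diet than in controls, but their wide spread left these differences short of the threshold. They were 0.39 (adjusted p = 0.394) for Ugt1a2, and 0.67 (adjusted p = 0.160) and 0.50 (adjusted p = 0.121) for the 2 Ugt1a5 probes, with 5 of 6 high-fat samples above the control mean each time. Without high-fat replicate 5 the Ugt1a5 differences were 0.91 (adjusted p = 0.0396) and 0.68 (adjusted p = 0.0199), and without control replicate 5 ILMN_1225154 gave 0.63 (adjusted p = 0.0468). Ugt2b1 lay lower (−0.39, adjusted p = 0.0632), and passed in 5 alternatives, among them the fits without control replicate 5 (−0.47, adjusted p = 0.0231) and without high-fat high-sugar replicate 1 or 5.

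With the sugar drink (high-fat high-sugar against high-sugar), 0 of 12 UGT probes passed by limma, with 2 at an unadjusted p under 0.05, where 3.32% of all tested probes rose and 3.73% fell (7.05% in either direction). The 2 were the dim Ugt3a1 probe ILMN_2766826 and the Ugt2b34 probe, which was tested only through arrays of these 2 groups. Without Ugt2b34, 0 of 11 passed. The differences ran from −0.24 to 0.13, with a median of −0.12. No probe had groups without overlap, against 3.69% of all probes. Ugt1a2 differed by −0.12 (95% interval −0.69 to 0.46) and Ugt2b36 by 0.06 (ILMN_1235719, interval −0.10 to 0.22), so a fall of Ugt2b36 like the one with water (−0.40) lies outside that interval.

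The sugar effect differed between the diets for 1 of 12 probes, against 2.52% of all tested probes (1.01% with a larger and 1.50% with a smaller value on the high-fat diet). Ugt2b36 rose more on the high-fat diet by ILMN_1235719 (difference of the differences 0.46 ± 0.11, adjusted p = 0.0246, limma), while its second probe gave 0.34 ± 0.11 (adjusted p = 0.105). The high-fat group with water had the lowest level of the 4, and the high-sugar and high-fat high-sugar groups lay close together, with medians of 11173 and 11724. For Ugt1a2 and the 2 Ugt1a5 probes the fitted falls were larger on the high-fat diet by 0.50, 0.76 and 0.72, and none of these passed (adjusted p = 0.553, 0.396 and 0.203). This comparison shares its 4 groups with the others, so it is no separate evidence.

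Samples also differed within their groups, and the Ugt1a probes did so together. Deviations from the group mean, over the 24 samples, correlated at 0.972 between Ugt1a2 and Ugt1a5 (ILMN_2453351), at 0.955 between the 2 Ugt1a5 probes and at 0.753 between Ugt1a2 and Ugt1a1. Whether the Ugt1a2 and Ugt1a5 probes read separate transcripts was not tested. Ugt1a2 and Ugt2b1 correlated at −0.615. The 2 probes of Ugt2b36 correlated at 0.726 and those of Ugt3a1, one of them dim, at 0.233. These values describe samples that share an array for every probe and carry no test. The standard deviation of Ugt1a2 was 33.8% of the mean in controls, 43.1% in high-fat, 69.6% in high-sugar and 60.9% in high-fat high-sugar samples. For Ugt3a2 in high-fat samples the SD was 642 around a mean of 7778.

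**Figure D4:**
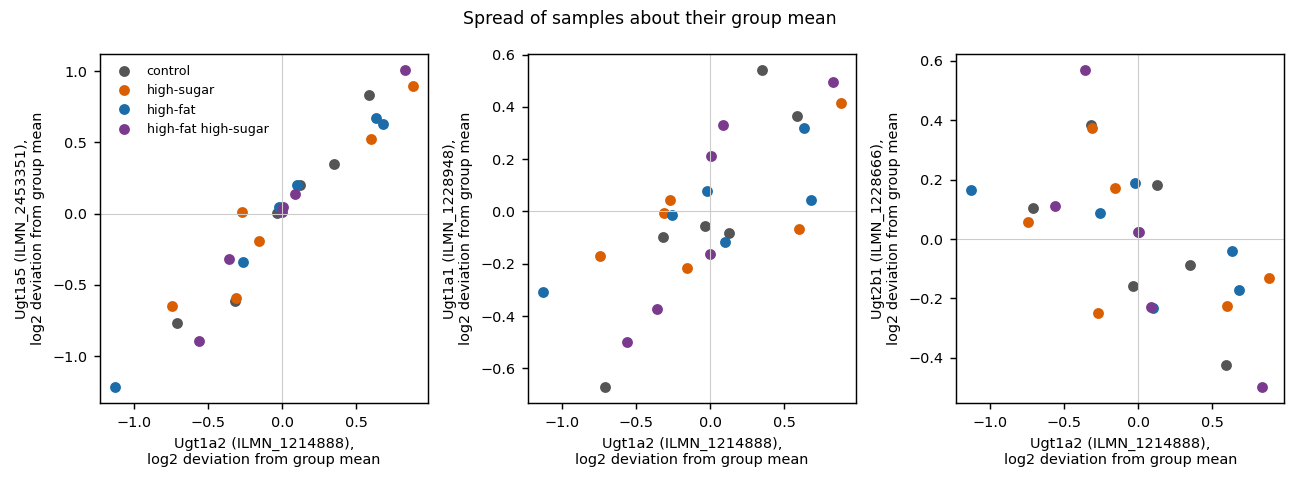
Deviation of each of the 24 samples from its group mean on the log2 scale of intensity plus 32, with Ugt1a2 on the x axis and Ugt1a5, Ugt1a1 and Ugt2b1 on the y axes of the 3 panels. Each point is a sample, coloured by group. Ugt1a5 follows Ugt1a2 closely (0.972), Ugt1a1 less so (0.753), and Ugt2b1 runs the other way (−0.615).

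For the 3 UGT genes with the widest range of group means, Ugt1a5 (2.70), Ugt1a2 (2.59) and Ugt2a3 (1.14, all log2), the genes with the most similar pattern were taken by Pearson's r over the 24 samples. For Ugt1a5 they were Rnf166 (0.938), Pltp (0.923), the phospholipid transfer protein, Rer1 (0.919), Tecr (0.914), a reductase of fatty acid elongation, and Klk1b27 (0.907). Ugt1a2 shared Rnf166, Pltp, Klk1b27 and Rer1 with it, and had Tinagl1 (0.908) in addition. Deviations within groups correlated less, at 0.612 for Ugt1a2 and Rnf166 and at 0.819 for Ugt1a5 and Tecr. For Ugt2a3 the genes were the amylase Amy1 (0.942), Slc25a16 (0.939), the kinase Aatk (0.937), the alcohol dehydrogenase Adh4 (0.926) and Pgrmc1 (0.920). Samples of all 4 groups enter these values, so they include the differences between the groups.

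Genes around glucuronidation were counted with 1 probe for each gene, the brightest tested. Over all 11115 genes counted in this way, 14.7% rose and 13.9% fell with sugar on the normal diet (28.6% in either direction), and 16.4% rose and 13.8% fell on the high-fat diet (30.3%). A count near these shares is not a result about the genes of a list. The lists were also chosen with earlier results of these data known, so a count far from these shares is no test. Where another tested probe of a named gene gave a different call or a value over 1.5 times apart, it is given beside the first. Of 6 tested genes listed for nucleotide sugar supply, 2 rose on the normal diet and 2 on the high-fat diet, and 0 fell by limma, a share near that of all genes. Whether the Slc35b1 and Slc35b4 carriers bring UGTs their sugar donor was not tested, so their rises are no measure of donor supply. Slc35b1, a transporter of the endoplasmic reticulum, rose by 0.57 ± 0.12 and 0.86 ± 0.12, and Ugp2, which makes UDP-glucose, rose by 0.59 ± 0.09 on the high-fat diet. For Slc35b4 the brightest probe rose by 0.36 ± 0.09 on the normal diet, while its other probe gave 0.00 there (adjusted p = 0.984) and fell by 0.20 on the high-fat diet (adjusted p = 0.0475, limma). The list medians were 0.12 and 0.16, against −0.01 over all genes on each diet. Of 6 genes that use glucuronate or split glucuronides, 1 rose and 1 fell on each diet, again near the share of all genes. Gusb, the β-glucuronidase that splits glucuronides, fell by 0.47 ± 0.08 (adjusted p = 8.59e-05) and by 0.32 ± 0.08 (adjusted p = 0.00319, limma). Its 3 other probes gave −0.20 to −0.45 on the normal diet, where 2 of them passed, and −0.04 to −0.23 on the high-fat diet, where they did not pass. Akr1a1, a reductase of glucuronate, rose by 0.38 ± 0.07 on the high-fat diet, and Rgn went from a mean of 7.32 to 24.5 on the normal diet. The list medians were 0.06 and 0.14.

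Carriers move glucuronides into and out of the hepatocyte. Of 8 tested, 3 rose and 1 fell with sugar on the normal diet, and 3 rose and 0 fell by limma on the high-fat diet (28.6% and 30.3% of all genes in either direction), with medians of 0.22 and 0.16. The uptake carrier Slco2b1 rose by 1.02 ± 0.13 and 0.85 ± 0.13, and Slco1b2, which takes up bilirubin glucuronide, by 0.35 ± 0.06 and 0.38 ± 0.06 with its brightest probe and by 1.21 and 1.24 with the other. Abcc2, which exports bilirubin glucuronide into bile, fell by 0.47 ± 0.10 with sugar on the normal diet (adjusted p = 0.000621) and by 0.46 ± 0.10 with fat on water (adjusted p = 0.00161, limma) with its brightest probe. The other Abcc2 probe showed neither fall, with 0.17 (adjusted p = 0.118) and 0.00 (adjusted p = 0.997). Abcc3, which exports glucuronides into blood, had means of 1090 in control, 1340 in high-sugar, 574 in high-fat and 1372 in high-fat high-sugar samples. It fell with fat on water (−0.85 ± 0.15, adjusted p = 0.000303) and rose with sugar on the high-fat diet (1.22 ± 0.15, adjusted p = 8.44e-07), and the difference between diets passed (0.90 ± 0.21, adjusted p = 0.0237, limma). Its group means had the order of those of Ugt2b36 by ILMN_1235719.

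Of 4 genes of heme breakdown, the pathway that yields bilirubin, 2 rose and 0 fell by limma with sugar on the normal diet, and 2 rose and 1 fell on the high-fat diet, against 28.6% and 30.3% of all genes in either direction. Hmox1, the inducible heme oxygenase, rose by 0.58 ± 0.17 on the normal diet. Blvra, a biliverdin reductase, rose by 0.45 ± 0.10 on the high-fat diet. On the normal diet its rise of 0.29 ± 0.10 was lost without control replicate 2 or 6 or high-sugar replicate 1, 2 or 3 (adjusted p between 0.0570 and 0.111). Blvrb rose by 0.38 ± 0.09 and Hmox2 fell by 0.46 ± 0.08 with sugar on the high-fat diet, but the other Blvrb probe gave 0.07 there (adjusted p = 0.655). List medians were 0.24 and 0.18.

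Of 12 receptors and factors known to regulate UGT genes, 4 rose and 1 fell with sugar on each diet, against 28.6% and 30.3% of all genes in either direction, with medians of 0.13 and 0.03. Nr1i2, the pregnane X receptor, rose by 0.34 ± 0.11 and 0.37 ± 0.11 with sugar. With fat it fell by 0.57 ± 0.11 on water (adjusted p = 0.000647) and by 0.55 ± 0.11 on the sugar drink (adjusted p = 0.00225, limma). Nr1i3, the constitutive androstane receptor, rose by 0.42 ± 0.13 with sugar on the high-fat diet and fell by 0.68 ± 0.13 with fat on water and by 0.61 ± 0.13 with fat on sugar. Of its 4 other probes, 1 rose with sugar on the high-fat diet and 2 fell with fat in each of these comparisons, and the remaining ones did not pass. Nfe2l2, which encodes the stress factor NRF2, rose by 0.43 ± 0.11 and 0.50 ± 0.11 from a control mean of 12.8, and its inhibitor Keap1 fell by 0.32 ± 0.06 on the high-fat diet, where 2 of its 4 other probes also fell and 2 did not pass.

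Among 11 known targets of these receptors, 4 rose and 1 fell with sugar on the normal diet, and 5 rose and 0 fell by limma on the high-fat diet (medians 0.19 and 0.26), against 28.6% and 30.3% of all genes in either direction. Aldh1a1, an aldehyde dehydrogenase, rose by 1.28 ± 0.13 and 1.82 ± 0.13, and Gclm, of glutathione synthesis, by 0.80 ± 0.10 and 1.02 ± 0.10. Cyp1a2 rose by 0.42 ± 0.12 and 1.18 ± 0.12 and fell with fat on water by 1.03 ± 0.12. Cyp2b10 went from a mean of 22.6 to 91.0 with sugar on the normal diet by its brightest probe, while the other gave 0.12 (adjusted p = 0.202). Gsta1 went from 4.58 to 184 on the high-fat diet, a difference of 2.36, and its other probes rose by 0.85 and 1.78. Of 8 sulfotransferase and sulfate donor genes, the other main conjugation route, 5 rose and 0 fell by limma on the normal diet, and 4 rose and 1 fell on the high-fat diet, against 28.6% and 30.3% of all genes in either direction, with medians of 0.51 and 0.52. Sult2a8, a bile acid sulfotransferase, rose by 1.30 ± 0.18 and 1.28 ± 0.18, Sult1c2 by 1.03 ± 0.19 and 1.16 ± 0.19, and Papss1, which makes the sulfate donor, by 0.51 ± 0.10 and 0.71 ± 0.10. The other Papss1 probe gave 0.20 (adjusted p = 0.0488) and 0.17 (adjusted p = 0.0814, limma).

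**Figure D5:**
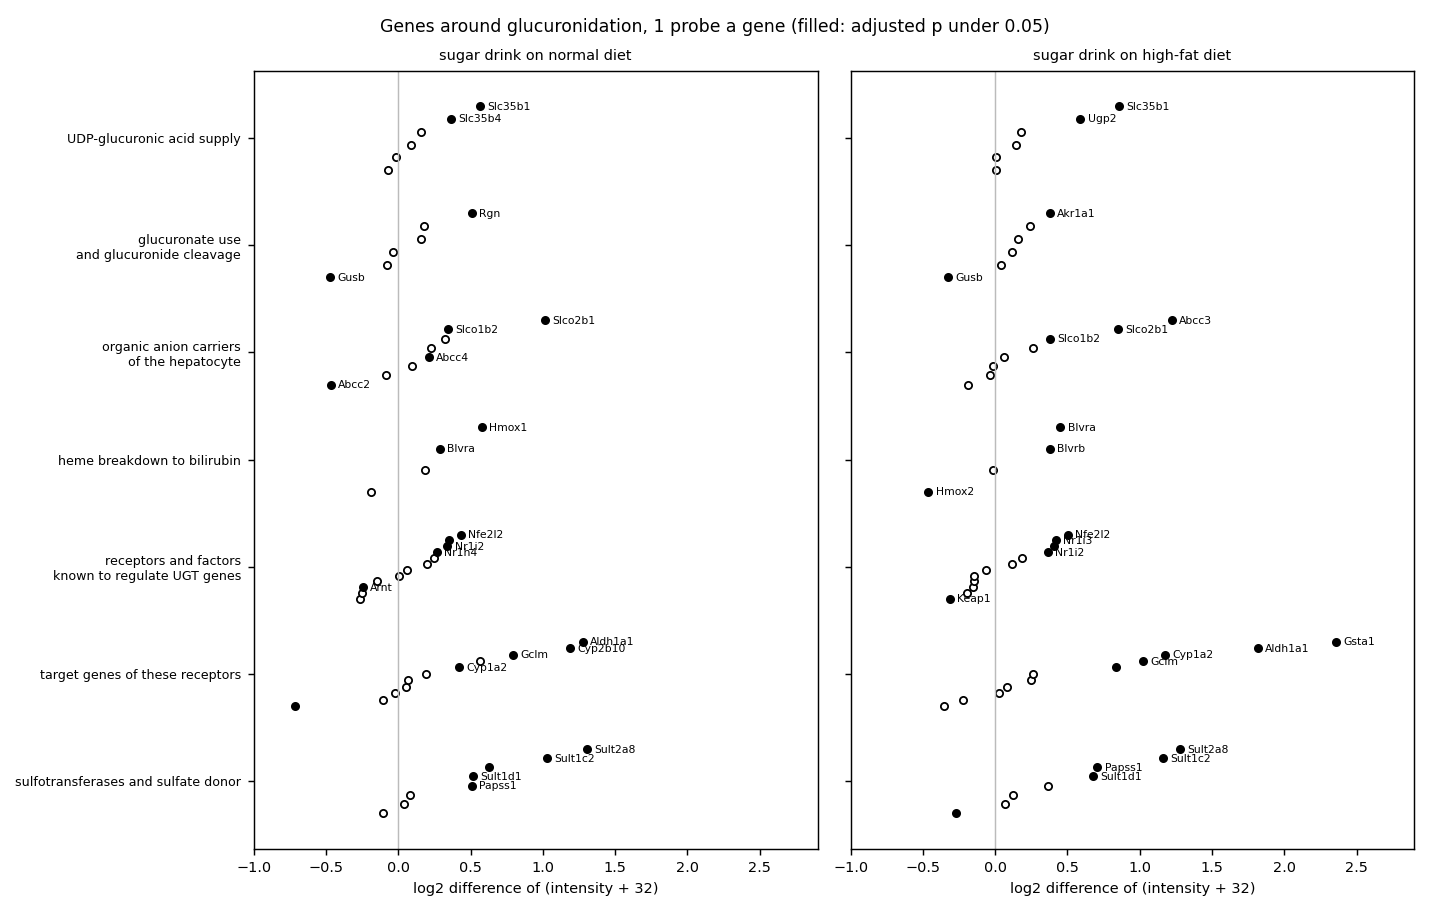
Effect of the sugar drink on the genes around glucuronidation on the normal diet (left) and the high-fat diet (right), as the log2 difference of intensity plus 32 (x axis), with 7 gene lists in rows. Each point is 1 gene, filled where adjusted p was under 0.05, and up to 4 passing genes of each list are labelled. Aldh1a1 lies at 1.28 on the left and 1.82 on the right, and Gusb lies below 0 in both.

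Several marker levels moved with the drink beside these results. The summed intensity of 8 hepatocyte markers ranged from 34593 to 40171 in control, 40467 to 46247 in high-sugar, 33712 to 38214 in high-fat and 35226 to 41082 in high-fat high-sugar samples. Of 7 tested members 4 rose and 0 fell by limma on the normal diet, where 14.7% of all genes rose and 13.9% fell. There the mean of Ttr went from 9938 to 14028, while Apoa1, the brightest, went from 22607.5 to 22327.7 and F2 from 4170 to 3640, so the sum does not stand for every marker. For the pericentral list, 2 of 6 rose and 1 fell, and for the periportal list 2 of 5 rose and 2 fell on the normal diet, against 14.7% and 13.9% of all genes. The sum over the 3 pancreatic markers on the array ranged from 3414 to 3936 in control, 5348 to 6263 in high-sugar, 2646 to 3254 in high-fat and 4143 to 5963 in high-fat high-sugar samples, so no sugar sample fell into the range of its water group. Most of this sum is Amy2a5 alone, with means of 2898, 4850, 2526 and 4547 in the same order of groups. Cela1 had means of 721, 1015, 509 and 605, and Cpa1 was under the noise limit. The macrophage sum ranged from 1856 to 2174 in control and from 1922 to 3227 in high-fat samples, and 4 of 5 tested markers rose with fat on water by their brightest probes, where 8.58% of all genes rose and 8.51% fell (17.1% in either direction). The other probes of Adgre1 (−0.12), Csf1r (−0.06) and Clec4f (0.07) did not pass in that comparison. The part of these shifts in the UGT results was not tested. Where a gene had a second probe that passed, it went against the brightest probe for 16.6% of such probes with sugar on the normal diet and 16.7% on the high-fat diet, against 0.436% with fat on water. Of the 10 UGT genes only Ugt1a5, Ugt2b36 and Ugt3a1 had 2 tested probes, and within each gene both went the same way with sugar. So few genes cannot be judged against these shares. The labels do not say which arrays shared a bead chip, so chip effects were not tested.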

How the data were processed

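Liver RNA of 24 samples, in 4 groups of 6, was measured on an Illumina mouse bead array. Per the submitters' processing notes, the authors used GenomeStudio 2011.1. The deposited values are intensities on a linear scale, per the labels from biotin-labelled cRNA. Values read from the table show background subtraction (37.7% below 0) and quantile normalisation (sorted columns differed by at most 0.231). A genome build for the array is not given in the sources used here. A table of non-normalised values has 48 columns of per-sample values whose names match no sample, and these were not used. Symbols came from the platform annotation. For 34807 of the 34885 probes with a single symbol, the gene identifier was matched and its current symbol used, whether or not it differed.

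After adding 32, log2 intensities were fitted with limma 3.58.1 in R 4.3.3: 1 mean per group over all 24 samples, empirical Bayes with an intensity trend (20 residual degrees of freedom), two-sided tests, and Benjamini-Hochberg adjustment within each of 5 contrasts. The 5 were sugar on each diet, fat with each drink, and the difference between diets. The noise limit was the one-sided 95% point of a normal distribution whose SD came from the array's negative values. The offset shrinks differences of dim probes, and precision is limited by how many arrays there are. The fitting code was tested on simulated data. For genes outside the 10 UGT genes, those named are the up to 4 passing members with the smallest adjusted p in each list and contrast, plus the 5 most similar genes for each of 3 UGT genes. Both UGT genes and lists were chosen with earlier results of these data known, among them the falls of Ugt1a2 and Ugt1a5 with sugar. Alternatives covered the offset, a floor, the filter, 1 probe per gene, cyclic loess, array weights, the trend, the samples in the fit, a replicate block and leaving out each sample.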

Additional observations from a re-analysis of the deposited data

Results flagged for a closer look

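In each group of 6 samples, a sample was singled out when its gap to the nearest other sample took up more of the group's range than Dixon's 95% critical value allows. Over the 15 UGT probes this met 4 of 60 groups, and chance gives about 1 in 20. Ugt1a2 (ILMN_1214888) read 105 in high-fat high-sugar replicate 1, where the next sample read 49.8. Ugt1a1 read 1790 in high-sugar replicate 2, with the next at 1380, and this sample decides whether Ugt1a1 passed on the normal diet (adjusted p = 0.0668 without it). Ugt3a2 read 13996 in high-fat high-sugar replicate 2, with the next at 11870. Ugt2b5, under the noise limit throughout, read −11.7 in control replicate 5, with the next at −4.91.

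The effect of sugar on Ugt2b36 differed between the diets by a test of that difference (ILMN_1235719, 0.46, adjusted p = 0.0246, limma), and the second probe of the gene gave 0.34 (adjusted p = 0.105).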

How the results depend on the processing

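Unlike the counts for sugar in the Results, those in this section include Ugt2b34 unless stated, although it was tested only through the groups where it was high. With it, the main fit gave 12 probes for sugar on the normal diet and 9 on the high-fat diet. Over the alternatives, the count of the 12 UGT probes that passed stayed within 1.5 times the main count in 4 of 5 comparisons. In the other, fat with the sugar drink, it was 1 in place of 0 with intensities under 16 set to 16 (Ugt3a1 ILMN_2766826, −0.28, adjusted p = 0.0388). No difference of a UGT probe turned direction past the threshold. Leaving out each sample in turn gave 11 to 12 probes for sugar on the normal diet, 9 to 10 for sugar on the high-fat diet, 3 to 6 for fat with water, 0 to 0 for fat with sugar, and 1 to 1 for the difference between diets. Samples with the same replicate number did not deviate together (correlations from −0.257 to 0.302, 8 of 24 over 0.1, and 3 of 24 samples closest to their own number), so the numbers were not taken as pairs. With the replicate block the counts were 12, 9, 4, 0 and 1. Leaving out probes above noise with only one drink or one diet (Ugt2b34), an alternative chosen after seeing the data, gave 11, 9, 4, 0 and 1. With only the compared groups in the fit, fat with water still gave 4 probes, but all 4 were lower: Ugt3a1 was lost (adjusted p = 0.0664) and Ugt2b1 gained (adjusted p = 0.0364). Of 414 results for single UGT probes with sugar on the normal diet, 402 kept direction and side of the threshold and 12 lost the call. On the high-fat diet 409 of 414 did so, with 1 lost and 4 gained, and for fat with water 396 of 414, with 10 lost and 8 gained. Dim probes (Ugt2b34, Ugt2b1, Ugt2a3 and Ugt3a1 ILMN_2766826) changed by over 1.5 times with the offset or floor. Ugt2a3 with the floor gave 0.96, 1.70 and −1.02 in the sugar comparisons and in fat with water. The cause of lost calls was not tested.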
